A study of Mus musculus with 61 samples.

Results

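Chat, Slc5a7, Slc18a3 and Ache, the 4 genes that make, load and break down acetylcholine, were followed through 61 fractions of 6 mouse brains. They were chosen by name as genes of cholinergic neurons, and each is measured by 1 probe of a one-colour array, the probe of the gene with the highest mean signal, so the 4 genes are 4 of 16355 genes named on the array. The mice were 8-week-old male C57BL/6J animals, untreated and of one genotype. Each brain was cut whole in 1 plane into slices 1 mm thick, termed fractions, and each fraction was hybridised to 1 array. The coronal mice gave 13 fractions (series C) and 16 fractions (series Co), both running from the caudal to the rostral end. The horizontal mice gave 6 (H) and 7 (Ho), from dorsal to ventral, and the sagittal mice 9 (S) and 10 (So), from left to right. The study matched 56 of the fractions into 28 pairs, each holding 1 fraction of each mouse of a plane, and chose the matches by the likeness of these same arrays, so the spread within pairs is not independent of that choice.

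Acetylcholine is made by choline acetyltransferase, the product of Chat, from acetyl-CoA and choline. The high-affinity choline transporter encoded by Slc5a7 brings choline back into the terminal, and the vesicular acetylcholine transporter encoded by Slc18a3 loads the product into synaptic vesicles. Acetylcholinesterase, encoded by Ache, splits the transmitter in the cleft, and is also made by many cells that are not cholinergic. In the brain the cell bodies of cholinergic neurons lie mainly in the cranial motor nuclei and the tegmental nuclei of the brainstem, in the medial habenula, and in the striatum and basal forebrain. An mRNA level in a fraction reads mainly cell bodies, and in such bulk tissue fewer cells of a type and less RNA per cell cannot be told apart.

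Slc18a3 lies within the transcribed span of Chat on the same strand in the RefSeq annotation, an arrangement known as the cholinergic gene locus. The 300 bases around each start site (250 before it and 50 after it, GRCm38.p6, RefSeq, written 5′ to 3′ on the gene's strand) are shown because Chat and Slc18a3 share this locus, and those of Slc5a7 and Ache are set beside them. Capitals mark matches on either strand to the TATA box (TATAAA), the GC box (GGGCGG), the CCAAT box, the homeodomain core (TAATTA) and the core of the cyclic AMP element (TGACG), and matches may overlap.
Chat, chr14:32465860-32466159, minus strand: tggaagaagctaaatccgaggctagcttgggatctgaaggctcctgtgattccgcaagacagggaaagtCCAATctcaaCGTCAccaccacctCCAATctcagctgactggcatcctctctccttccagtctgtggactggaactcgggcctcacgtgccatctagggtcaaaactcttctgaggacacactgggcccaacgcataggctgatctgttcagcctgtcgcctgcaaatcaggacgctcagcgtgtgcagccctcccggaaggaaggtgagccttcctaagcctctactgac
Slc18a3, chr14:32464801-32465100, minus strand: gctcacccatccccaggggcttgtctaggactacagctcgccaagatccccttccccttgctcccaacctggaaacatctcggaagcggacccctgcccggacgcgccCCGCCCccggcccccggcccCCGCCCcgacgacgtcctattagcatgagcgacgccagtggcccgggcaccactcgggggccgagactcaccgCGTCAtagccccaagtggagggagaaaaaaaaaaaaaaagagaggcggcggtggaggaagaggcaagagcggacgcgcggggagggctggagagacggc
Slc5a7, chr17:54298985-54299284, minus strand: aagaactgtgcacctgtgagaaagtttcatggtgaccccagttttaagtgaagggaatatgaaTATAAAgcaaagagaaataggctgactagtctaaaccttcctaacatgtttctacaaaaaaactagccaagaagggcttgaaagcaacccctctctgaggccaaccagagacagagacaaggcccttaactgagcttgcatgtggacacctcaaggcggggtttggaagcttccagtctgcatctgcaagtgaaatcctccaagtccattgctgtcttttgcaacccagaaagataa
Ache, chr5:137288004-137288303, plus strand: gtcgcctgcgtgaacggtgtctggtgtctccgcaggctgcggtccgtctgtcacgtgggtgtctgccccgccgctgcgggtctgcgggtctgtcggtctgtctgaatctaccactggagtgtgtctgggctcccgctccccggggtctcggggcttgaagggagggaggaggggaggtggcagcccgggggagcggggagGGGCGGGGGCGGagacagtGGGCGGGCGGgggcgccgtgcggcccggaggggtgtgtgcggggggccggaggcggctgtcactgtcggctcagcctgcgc
Chat held 2 CCAAT boxes and 1 cyclic AMP core, and Slc18a3 held 2 GC boxes and 1 cyclic AMP core. Slc5a7 held 1 TATA box, Ache held 4 overlapping or adjoining GC boxes, and none of the 4 windows held the homeodomain core. Of 32851 promoters of the same length, 13.6% held the TATA box, 35.7% the GC box, 37.4% the CCAAT box, 5.29% the homeodomain core and 20.8% the cyclic AMP core. The share of G and C ranged from 44.7% in Slc5a7 over 55.7% in Chat and 67.0% in Slc18a3 to 74.0% in Ache, against a median of 52.7% over all promoters.

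Signals are given below as a percentage of the 75th percentile of the array, whose own signal ran from 740 to 1971 units (median 1207). The share of probes well above background ran from 57.9% to 73.1% (median 66.3%) and its median was 66.7% in the brainstem fractions, 69.8% in the middle fractions and 67.1% in the forebrain fractions defined below. Ache was well above background in all 61 fractions, Slc5a7 in 60, Slc18a3 in 54 and Chat in 46. The Chat probe was dim, with 8.28 to 82.6 signal units, whereas Slc5a7 ran from 16.3 to 1380 units. The other Chat probe was well above background in 9 fractions. All 4 genes varied over the 28 pairs in limma's F test, with Benjamini-Hochberg adjusted p-values of 1.26e-07 for Chat, 5.85e-12 for Slc5a7, 4.60e-11 for Slc18a3 and 1.19e-07 for Ache. Of all features tested, 61.3% passed the same test. The residual SD between paired fractions was 0.34 for Chat, 0.48 for Slc5a7, 0.42 for Slc18a3 and 0.26 for Ache on the log2 scale.

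Slc5a7, Slc18a3 and Chat each had a caudal and a rostral peak along the coronal plane with a low between them, while Ache declined from the caudal end. Slc5a7 in series C measured, from C1 to C13, 36.9, 56.01, 43.0, 70.1, 28.4, 7.36, 9.42, 27.1, 44.3, 47.8, 15.7, 3.78 and 2.70% of the 75th percentile. In series Co, from Co1 to Co16, it measured 102, 55.3, 26.0, 37.9, 41.1, 46.4, 11.5, 5.31, 16.0, 35.0, 45.4, 26.8, 5.32, 2.55, 1.42 and 3.54%. Both mice thus had high fractions at the caudal end, their low at C6 and Co8, a second rise that peaked at C10 and Co11, and their lowest values at the rostral end.

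Slc18a3 had the same shape at a different scale. Its values in series C were 8.63, 16.0, 12.6, 22.2, 8.27, 2.43, 2.49, 6.15, 9.40, 11.0, 4.20, 1.18 and 1.16%. In series Co they were 42.1, 23.1, 9.90, 16.0, 15.3, 16.7, 4.32, 2.26, 4.40, 9.05, 11.5, 8.24, 1.47, 1.16, 0.661 and 1.36%, and Co14 and Co15 were not well above background. The caudal peaks of Slc18a3 stood higher over its rostral peaks than those of Slc5a7 did.

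Chat showed both peaks at a similar height. In series C it measured 2.04, 3.12, 2.96, 3.50, 2.50, 1.21, 0.998, 4.11, 4.29, 4.33, 2.36, 0.774 and 0.896%, with C12 and C13 not well above background. In series Co it measured 4.66, 2.89, 1.69, 2.57, 2.24, 2.42, 1.16, 0.899, 1.72, 3.28, 3.82, 2.64, 0.709, 0.506, 0.674 and 1.03%, with Co3 and Co13 to Co16 not well above background. The rostral rise began at C8 in series C, which was as high as C9 and C10, whereas its paired fraction Co9 was still at 1.72%.

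Ache, in contrast, was high in every fraction. It fell in series C from 294% at C1 to 93.2% at C13 with a median of 194%, and in series Co from 437% at Co1 to 124% at Co16 with a median of 230.3%. At the rostral peak of the other genes it reached 173% in C10 and 229% in Co11, against 173 to 205% and 221 to 267% in the middle fractions of these mice.

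**Figure D1:**
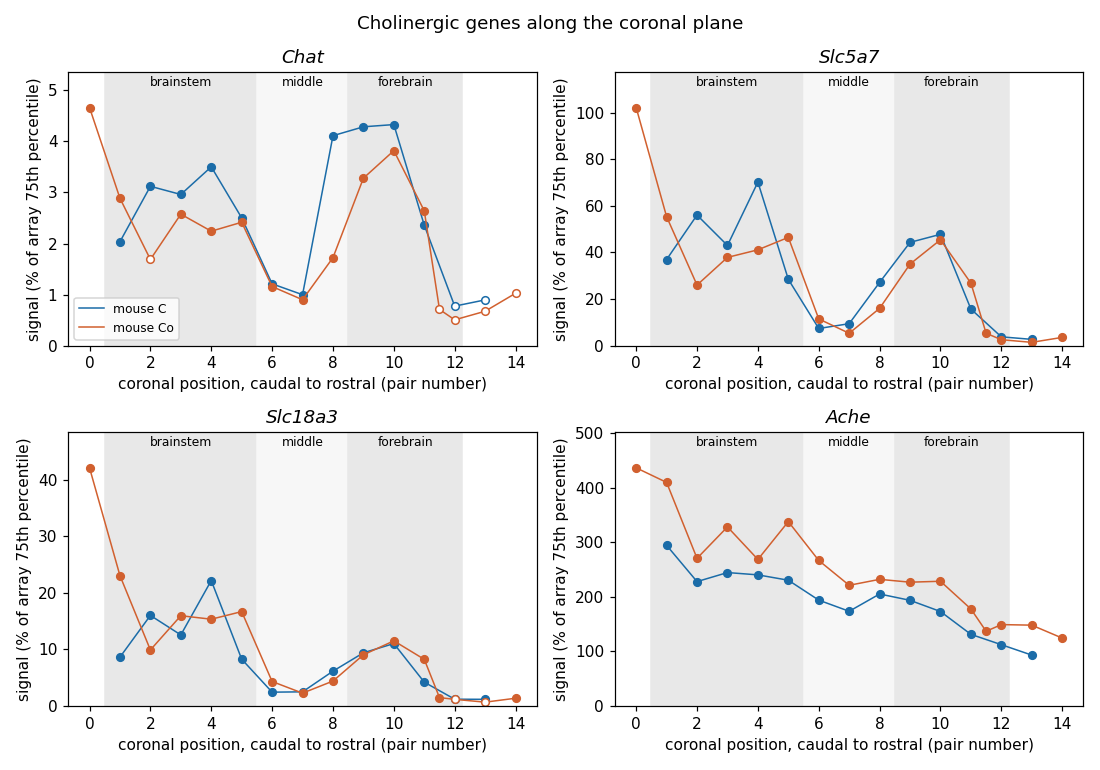
Signal of Chat, Slc5a7, Slc18a3 and Ache (percent of the array's 75th percentile) against coronal position in pair numbers for mouse C (blue) and mouse Co (orange), 1 array per point; open points were not well above background, grey bands are the brainstem, middle and forebrain blocks, and the unpaired Co1, Co13 and Co16 are drawn before, between and after the pairs. Slc5a7, Slc18a3 and Chat peak at both sides of a low at positions 6 and 7, and Ache declines from left to right.

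Region markers placed these peaks in part. Of 4 genes of the medulla and pons, Hoxb3, Hoxb5 and Slc6a5, the last the glycine transporter of hindbrain interneurons, were highest in C1 and Co2, whereas Hoxc4 was highest in C4 and Co12. Of 6 tested cranial motor neuron genes, Prph, Calca and Chodl were highest in C4 and Co1, the fractions in which Slc5a7 and Slc18a3 were highest, while Phox2a was highest in C4 and Co2 and Isl2 and Mnx1 in C2 and Co2. Slc6a3, the dopamine transporter, was highest in C6 and Co7, in the low of the cholinergic genes, and Th, which the olfactory bulb also expresses, in C13 and Co15. All 6 striatal genes were highest in Co11 and in C9 or C10, and Lhx8, a transcription factor of forebrain cholinergic neurons, was highest in C10 and Co11. The rostral peaks of Slc5a7, Slc18a3 and Chat fell in C10 and Co11 as well. The other genes listed for forebrain cholinergic neurons, Ngfr and Gbx2, were highest in C13 and Co15 and in C8 and Co9. Gbx2 shared its highest fraction with the thalamus gene Slitrk6 in every series, and Lhx8 shared C10 and Co11 with the striatal gene Drd1. Which cells expressed these genes was not tested. Eomes, Cdhr1 and Doc2g of the olfactory bulb were highest in C13 and Co15, where Slc5a7 and Slc18a3 were at their lowest. Of 5 genes of the medial habenula only Gpr151 was highest in C7 and Co9, where Chat measured 0.998 and 1.72% and Slc18a3 2.49 and 4.40%. The other 4 were highest in C1 or C12, so these lists do not place the habenula.

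To compare the peaks, the coronal pairs were grouped by order into a brainstem block (pairs 1 to 5, which also hold the cerebellum), a middle block (pairs 6 to 8) and a forebrain block (pairs 9 to 12). The middle block held the highest fractions of Slc6a3 and of the hippocampus gene Spink8 (C7 and Co8). It also held those of Hcrt and Pmch of the hypothalamus (C8 and Co9) and of Slitrk6 and Prkcd of the thalamus. Lef1 of the thalamus was highest in C13 and Co9, Avp of the hypothalamus in C8 and Co10, and Oxt in C9 and Co10. The middle block thus holds midbrain and forebrain tissue, and the names are shorthand for position. Taking the highest fraction of each block in each mouse, the brainstem peak of Slc18a3 was 2.01 times its forebrain peak in C and 3.66 times in Co. For Slc5a7 these ratios were 1.47 and 2.25, and for Ache 1.52 and 1.91. For Chat the ratio was 0.809 in C and 1.22 in Co, so the mice differed in which peak was higher. The Co values rest on Co1, which has no paired fraction, and with Co2 in its place the ratios were 2.00 for Slc18a3, 1.22 for Slc5a7, 1.79 for Ache and 0.756 for Chat. The forebrain peak of Slc5a7 stood 6.49 and 8.56 times over the lowest middle fraction in C and Co, that of Slc18a3 4.54 and 5.10 times, and that of Chat 4.34 and 4.25 times. That of Ache stood only 1.12 and 1.03 times over it.

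**Figure D2:**
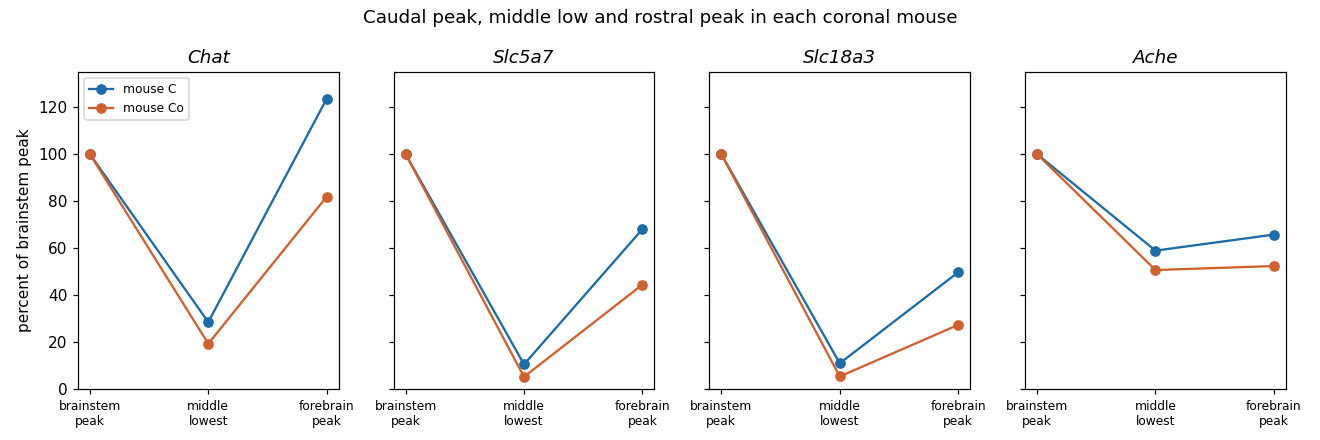
Highest brainstem fraction, lowest middle fraction and highest forebrain fraction of each gene as a percentage of its brainstem peak, for mouse C (blue) and mouse Co (orange), 1 array per point. Slc18a3, Slc5a7 and Chat dip in the middle and recover in the forebrain, to a level above the brainstem peak only for Chat in mouse C, and Ache hardly recovers. In mouse Co the brainstem peak of every gene is the unpaired Co1. With Co2 in its place the brainstem peak of Chat in mouse Co was 0.756 times its forebrain peak.

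The block means showed lower forebrain than brainstem levels for Slc18a3, Slc5a7 and Ache. In the limma model of the 28 pairs, Slc18a3 fell by 1.44 on the log2 scale from brainstem to forebrain (SE 0.20, adjusted p = 3.4e-07), which is 2.71-fold. Slc5a7 fell by 1.20 (SE 0.23, adjusted p = 6.3e-05) and Ache by 0.73 (SE 0.12, adjusted p = 1.2e-05). Chat measured -0.20 (SE 0.16, adjusted p = 0.324), an interval of -0.52 to 0.12 at 2 SE. Of all features, 25.8% were lower in the forebrain block. Within mouse C and mouse Co alone the differences were -1.40 and -1.48 for Slc18a3, -1.25 and -1.14 for Slc5a7, -0.73 and -0.73 for Ache, and -0.20 and -0.20 for Chat. Only for Ache did the forebrain and brainstem fractions of a mouse not overlap, and the share of all features without such overlap was not counted. The forebrain block includes C12 and Co14, where Slc5a7 measured 3.78 and 2.55%, and with the blocks redrawn to pairs 1 to 4 and 9 to 11 its difference was -0.39 (adjusted p = 0.226). Forebrain and brainstem fractions shared 0 slides, and when slide entered as a fixed term the difference of Slc5a7 turned to 0.34 and that of Slc18a3 to 0.24, and that of Ache measured -0.32, none past the threshold, so slide and block cannot be told apart.

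The difference of Chat was tested against that of each other gene. It was above that of Slc5a7 by 0.99 (adjusted p = 3.4e-06), above that of Slc18a3 by 1.24 (adjusted p = 3.0e-07) and above that of Ache by 0.53 (adjusted p = 0.0384). Slc18a3 minus Ache was -0.71 (adjusted p = 0.00316). This difference turned to 0.0159 with normexp background correction and quantile normalization together (adjusted p = 0.939), turned to 0.56 with slide as a fixed term and was lost with slide as a random term (adjusted p = 0.283), with the redrawn blocks (adjusted p = 0.51) and with same-number pairs, which match the fractions of a plane by number in place of the study's matches (adjusted p = 0.0851). Slc5a7 and Slc18a3 differed by 0.25 (SE 0.16, adjusted p = 0.211). The call of Chat against Ache ended with the coronal pairs alone (adjusted p = 0.115), with same-number pairs (adjusted p = 0.0997) and without any one of 10 arrays (C1, C9 to C12 or Co2 to Co6, adjusted p from 0.0517 to 0.141). With slide as a fixed term, Chat against Slc5a7 (adjusted p = 0.463) and Slc18a3 (adjusted p = 0.205) lost the call too. Whether the low brightness of the Chat probe has a part in its smaller differences was not tested. The other Chat probe had forebrain minus brainstem differences of -0.04 in C and -0.09 in Co. It was well above background in only 1 of 13 C and 3 of 16 Co fractions.

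Against the middle block, the brainstem block was higher for all 4 genes, while 21.3% of all features were higher there. Slc18a3 was higher by 2.04 on the log2 scale (SE 0.22, adjusted p = 3.8e-09), Slc5a7 by 1.94 (adjusted p = 1.8e-07), Chat by 0.82 (adjusted p = 0.0003) and Ache by 0.39 (adjusted p = 0.0213). No brainstem fraction of Slc5a7, Slc18a3 or Ache overlapped the middle fractions of the same mouse, a separation that was not counted over all features. The call for Ache ended when the arrays were scaled to their median (0.31, adjusted p = 0.0926), and without any one of C6, C7, C8, Co2 or Co6 (0.32, 0.34, 0.36, 0.35 and 0.34). With slide as a fixed term no gene passed.

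Of the 4 genes, Chat alone passed the test of forebrain against middle. It was higher in the forebrain block by 0.62 (SE 0.18, adjusted p = 0.0266), where 4.0% of all features were higher and 5.1% were lower. Slc5a7 measured 0.74 (adjusted p = 0.0754) and Slc18a3 0.60 (adjusted p = 0.101), and Ache -0.33 (adjusted p = 0.161). The rise of Chat was not told apart from those of Slc5a7 and Slc18a3. Chat minus Slc5a7 was -0.12 (adjusted p = 0.796) and Chat minus Slc18a3 0.02 (adjusted p = 0.975). With normexp background correction and quantile normalization together, Chat minus Slc5a7 was -0.43 (adjusted p = 0.0354). With the mouse as a block, Slc5a7 (adjusted p = 0.0441) and the lower level of Ache (adjusted p = 0.00622) also passed. The tests of the difference put Ache below Chat by 0.95 (adjusted p = 0.00751), below Slc5a7 by 1.07 (adjusted p = 0.0101) and below Slc18a3 by 0.93 (adjusted p = 0.00538). With same-number pairs these 3 calls were lost (adjusted p = 0.0817, 0.125 and 0.217). With slide as a fixed term those against Slc5a7 and Slc18a3 were lost (adjusted p = 0.296 and 0.218), and Chat against Ache was lost with the coronal pairs alone (adjusted p = 0.062) or without Co9 (adjusted p = 0.0696). Slc5a7 against Ache was lost without Co8 (adjusted p = 0.0696) or Co9 (adjusted p = 0.0609). The call for Chat ended without any one of 8 arrays (C6, C9, C10, C12, Co7, Co8, Co9 or Co12), and its value without Co9 was 0.41 (adjusted p = 0.194).

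All 4 genes were higher in the ventral than in the dorsal fractions. From H1 to H6, Slc5a7 measured 1.49, 1.64, 17.6, 41.5, 60.2 and 54.5%, and Slc18a3 1.28, 1.45, 3.07, 8.35, 12.6 and 9.23%. Chat rose from 1.32% at H1 to 4.36% at H5 and Ache from 59.1% to 264%. In the other mouse the highest fraction was Ho7 for Slc5a7 (52.5%) and Slc18a3 (9.64%), and Ho6 for Chat (3.90%) and Ache (278%). Pairs 4 to 6 exceeded pairs 1 to 3 by 3.48 on the log2 scale for Slc5a7 (SE 0.28, adjusted p = 2.4e-10), 2.34 for Slc18a3 (SE 0.24, adjusted p = 3.2e-08), 1.02 for Ache (SE 0.15, adjusted p = 1.3e-05) and 0.95 for Chat (SE 0.19, adjusted p = 0.00081). Of all features, 7.38% were higher ventrally. Ventral and dorsal fractions of a mouse did not overlap for any of the 4 genes, but such separation was not counted over all features. Slc5a7 exceeded Slc18a3 by 1.13 (adjusted p = 6.8e-05). With slide as a fixed term, Chat measured 1.33 and lost the call, and so did the difference of Slc5a7 and Slc18a3 (1.02, adjusted p = 0.147).

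In the sagittal plane Slc5a7, Slc18a3 and Ache were highest at or beside the midline. Slc5a7 measured, from S1 to S9, 2.39, 3.40, 22.9, 44.6, 56.9, 45.7, 31.3, 14.1 and 6.53%, and Ache rose from 68.8% at S1 to 301% at S5 and stood at 114% at S9. In series So the highest Slc5a7 and Slc18a3 fractions lay at So8 (59.1 and 12.1%), which belong to pair 7. The midline block was pairs 4 to 6 and the lateral block pairs 1, 2, 8 and 9, so So8 entered neither. Midline fractions exceeded lateral fractions by 2.79 on the log2 scale for Slc5a7 (SE 0.26, adjusted p = 2.2e-09), 2.07 for Slc18a3 (SE 0.23, adjusted p = 3.6e-08), 1.26 for Ache (SE 0.14, adjusted p = 6.0e-08) and 0.64 for Chat (SE 0.18, adjusted p = 0.0103). Of all features, 10.6% were higher at the midline. Of the 4 lateral fractions of a mouse, Slc18a3 was well above background in 1 in S and 3 in So, and Chat in 2 in S and 1 in So. The lateral levels of these genes thus lay near background. The Chat probe stood at 5.76% in So3, its highest of all 61 fractions, where Slc5a7 measured 11.0% and Slc18a3 2.21%. Without So3 the Chat difference was 0.79 (adjusted p = 0.00128), with the other Chat probe it was 0.0443 (adjusted p = 0.979), and with normexp background correction and quantile normalization together 0.0574 (adjusted p = 0.693). The other Chat probe was well above background in 0 of 9 S and 0 of 10 So fractions, so its value here is a reading near background. Midline and lateral fractions of a mouse did not overlap for Slc5a7, Slc18a3 and Ache. For Chat they were barely apart in S, at 2.58% in S4 against 2.57% in S2, and overlapped in So. Here too the share of all features without overlap was not counted.

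**Figure D3:**
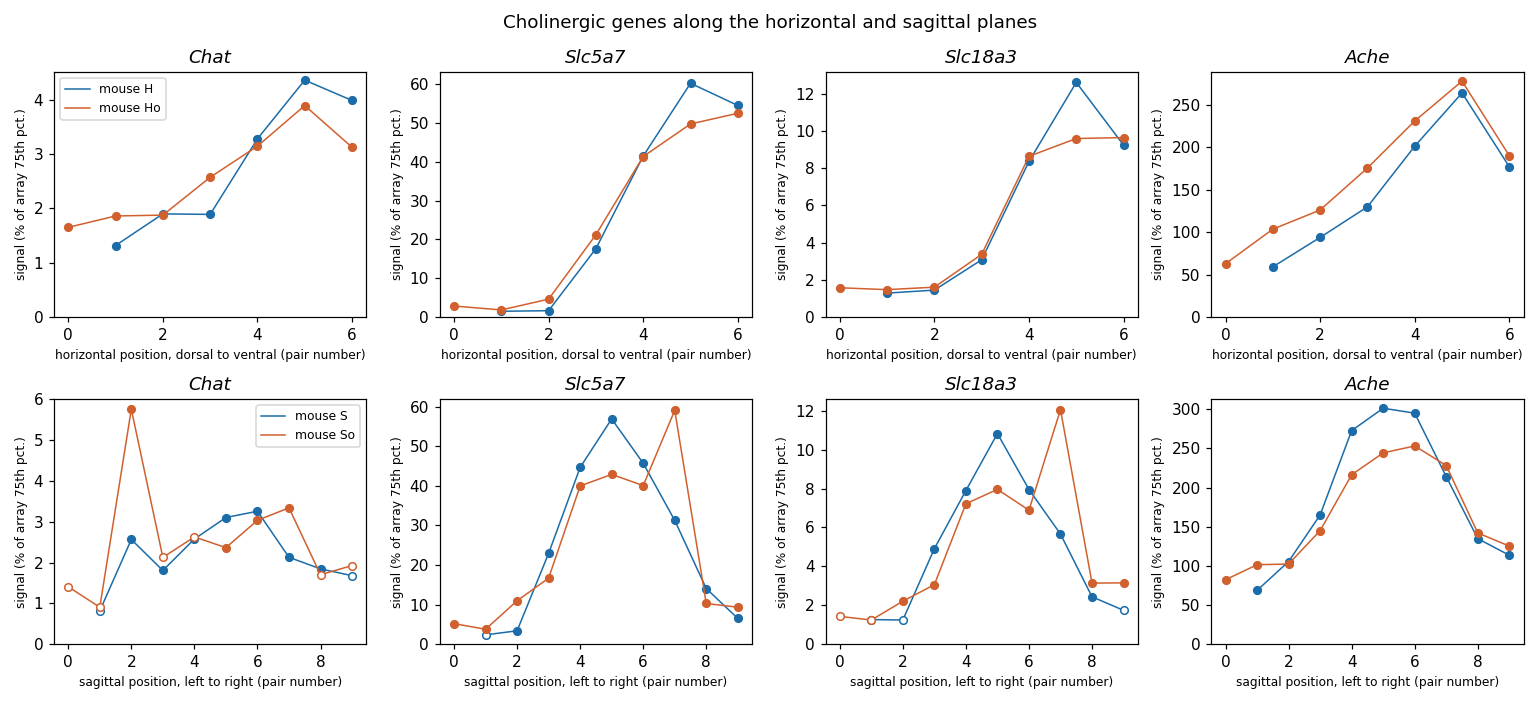
Signal of the 4 genes (percent of the array's 75th percentile) along the horizontal plane from dorsal to ventral (top row, mice H and Ho) and the sagittal plane from left to right (bottom row, mice S and So), 1 array per point, open points not well above background. All 4 genes rise ventrally, Slc5a7, Slc18a3 and Ache rise toward the midline, and Chat in So3 stands apart at 5.76%.

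**Figure D4:**
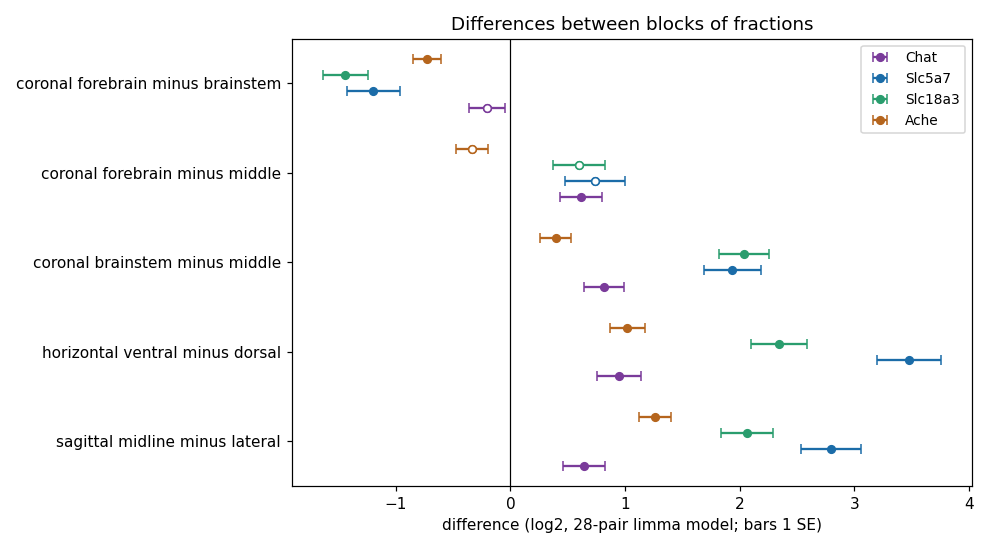
Log2 differences between blocks of fractions for each gene in the 28-pair limma model, with bars of 1 SE; open points did not pass an adjusted p of 0.05. Slc5a7 has the largest ventral and midline differences (3.48 and 2.79), and Chat is nearest 0 in forebrain against brainstem (-0.20).

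The order of the fractions was resolved only in part. Of the 12 steps between neighbours in the ranked coronal pairs, the step was smaller than the residual SD of the gene in 10 for Chat, 8 for Slc5a7, 8 for Slc18a3 and 10 for Ache. Pair 4 ranked first for Slc5a7 and Slc18a3, pair 10 for Chat and pair 1 for Ache. Over the 61 fractions, centred within the mouse, the profiles of Slc5a7 and Slc18a3 correlated at r = 0.96, those of Chat with Slc5a7 and Slc18a3 at 0.82 and 0.84, and those of Ache with Slc5a7, Slc18a3 and Chat at 0.88, 0.86 and 0.65. These fractions share mice and neighbouring tissue, so the values are descriptions.

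Of 13743 genes compared, the 5 with profiles most like Slc5a7 were Zfp503 (r = 0.92), Slc10a4 (0.90), Qrfprl (0.89), Carhsp1 (0.88) and Susd2 (0.87). Slc10a4 encodes a vesicular transporter-like protein of cholinergic and monoaminergic neurons. Along the coronal plane it was highest in C6 and Co6, where Slc5a7 measured 7.36 and 46.4%. It passed neither forebrain against brainstem (-0.37, adjusted p = 0.325) nor brainstem against middle (0.27, adjusted p = 0.519). Those most like Slc18a3 were Zfp503 (0.91), Patl2 (0.90), Susd2 (0.89), Ceacam10 (0.88) and Entpd3 (0.87), and those most like Chat were Dach1, Nexn, Qrfprl, Zfp503 and Ric8b (0.80 to 0.79). Zfp503, a zinc finger protein, was thus among the 5 for each of the 3 genes, and without centring for Slc5a7 and Chat but not for Slc18a3. The 5 most like Ache were Ufsp1 (0.95), B3galt5 (0.95), Plpp2 (0.95), Pnpla6 (0.94) and Rbms3 (0.94). Ufsp1 is the neighbour of Ache on chromosome 5.

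The other genes of acetylcholine and choline handling were counted from a list of 16 measured genes. In forebrain against brainstem 9 were lower and 1 was higher, where 25.8% of all features were lower and 19.6% higher, with a median of -0.30 against -0.09 over all features. Prima1, the membrane anchor of acetylcholinesterase, fell by 0.85 (SE 0.14, adjusted p = 9.2e-06), and the choline transporter-like Slc44a1 fell by 0.84 (adjusted p = 4.3e-10). Slc44a4 was the gene that rose, by 2.17 (adjusted p = 1.8e-10). Ventrally 6 of the 16 were higher and 0 lower (7.38% and 5.2% of all features), among them Slc10a4 by 4.45 (adjusted p = 1.8e-10) and Prima1 by 1.14 (adjusted p = 1.9e-05). At the midline 5 were higher and 1 lower (10.6% and 9.01% of all features).

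Of 14 measured acetylcholine receptor genes, 7 were higher and 4 lower in the forebrain than in the brainstem, where 19.6% and 25.8% of all features were. The count of lower genes was thus near the share over all features. The muscarinic receptor Chrm1, well above background in 52 of the 61 fractions, was higher by 3.79 (adjusted p = 1.7e-23) and the nicotinic subunit Chrna7 by 1.72 (adjusted p = 2.1e-15), opposite to Slc5a7 and Slc18a3. The nicotinic subunits Chrna4 and Chrna6 fell by 1.25 (adjusted p = 2.0e-13) and 1.66 (adjusted p = 7.7e-09), and the muscarinic Chrm2 fell by 0.70 (adjusted p = 0.00783). At the midline 8 of the 14 were higher and 2 lower (10.6% and 9.01% of all features).

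Of 6 tested cranial motor neuron genes, all 6 were lower in the forebrain than in the brainstem, against 25.8% of all features. Of these, Mnx1 was well above background in only 4 of the 61 fractions, and Tbx20, which was not tested, in 0. Isl2 was well above background in 10 of 10 brainstem and 0 of 8 forebrain fractions. Its fall is therefore a bound, at least 13.5-fold, set as for Lhx8 below. Prph, a filament protein, fell by 3.76 (adjusted p = 1.3e-15) and Calca by 2.75 (adjusted p = 4.7e-13). The summed signal of the 6 ran from 170.5 to 450.2% in the brainstem fractions and from 24.9 to 50.3% in the forebrain fractions. Of 3 tested genes listed for forebrain cholinergic neurons, Lhx8 was well above background in 7 of 8 forebrain and 0 of 10 brainstem fractions. It was at least 32.1-fold higher in the forebrain, a bound set against the dimmest probe well above background on each array. The bound itself was not tested. The limma difference of the measured values, those of the brainstem near background, was 5.51 on the log2 scale (adjusted p = 7.2e-13). Ngfr measured -0.05 (adjusted p = 0.881) and Gbx2, which peaked with Slitrk6, -0.21 (adjusted p = 0.694). The 3 oligodendrocyte genes Mbp, Mog and Mag, which build myelin, were all lower in the forebrain and all higher ventrally and at the midline, as Ache was. The shares over all features were 25.8%, 7.38% and 10.6%, and Prph and Calca had the same directions. The summed signal of the 3 oligodendrocyte genes ran from 12511 to 24744% in the brainstem fractions and from 8155 to 13713% in the forebrain fractions. The part of these genes in the Ache differences was not tested.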

How the data were processed

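RNA of 61 brain fractions was labelled with Cy3 and hybridised to 1 Agilent whole mouse genome array each. The intensity of every spot was deposited by the authors after background subtraction by Agilent Feature Extraction (version 9.1 per the submitters' processing notes), with no scaling between arrays, and a table of intensities normalized per array, used as an alternative. The file headers name design 014868, and the methods name another. Labels of series S were renumbered 1 to 9.

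Spots of a probe (43379 spots, 41174 probes) were averaged, and log2 values were reduced by the 75th percentile of the array. The 36573 probes well above background on at least 1 array were tested with limma 3.58.1 (R 4.3.3): 1 factor of 28 pairs, contrasts between blocks of pairs, Benjamini-Hochberg over all probes, threshold 0.05. The 6 differences between members entered as further rows. Gene names came from RefSeq accessions (22944 probes named). The fits were tested on simulated data. Similar genes were the 5 with the highest Pearson r over 61 fractions, among probes well above background on at least 10 arrays. The members and lists were chosen with earlier results of these data known, and from the lists those genes were named by value that place the fractions or that passed with or against a member. Each pair holds 2 mice, and the error of every contrast pools the spread within all 28 pairs of the 3 planes (28 residual degrees of freedom). Fractions of one mouse entered as separate replicates, so the p-values do not measure the spread between animals. The mouse, from the labels, is the replicate block of an alternative fit: of 129 combinations of paired fractions from one pair of mice, 115 deviated together with r over 0.1. Arrays lay on 16 slides, scanned on 5 days, and the number of arrays limits the precision. Alternatives covered scaling, background correction, filters, floor, blocks, pairing, boundaries and probe.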

Additional observations from a re-analysis of the deposited data

Results flagged for a closer look

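Chat in S1 lay below the other S fractions (0.819%) and was not well above background. On the log2 scale its gap to the nearest was 0.521 of the whole range, past Dixon's critical value. Of 16 member profiles tested in series H, Ho, S and So this was 1, and chance flags about 1 in 20. The S1 array shared slide 1 and scan day 1 with So1 and So2. All other arrays of series S were on slides 2 and 3 and had scan day 2. The negative controls of S1 had a median of 6.19 signal units, the highest in its series. The part of slide and scan day in the low Chat value of S1 was not tested. Co1, the most caudal fraction, has no pair and entered no test, and it held more of all 4 genes than any paired Co fraction: Chat 4.66%, Slc5a7 102%, Slc18a3 42.1% and Ache 436.6% of the array's 75th percentile.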

How the results depend on the processing

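Of 320 recomputed values of the 24 member results, 289 kept their direction and their side of the threshold. Differences are log2. Scaled to the median and in the authors' table, Ache in brainstem against middle measured 0.31 and 0.31 and no longer passed. With normexp and quantile normalization, changed together, Chat at the midline lost its call (0.0574), Slc5a7 in forebrain against middle gained one (0.66), and the differences Slc5a7 minus Slc18a3 in brainstem against middle (0.33), Slc18a3 minus Ache in forebrain against brainstem (0.0159) and at the midline (-0.33) turned sign. With the mouse as replicate block, Slc5a7 (0.74) and Ache (-0.33) in forebrain against middle passed, and the block changed no other call of the 24. With the slide as a random block Slc5a7 in forebrain against brainstem was lost (-0.91). With the slide fixed, forebrain against brainstem measured 0.34 (Slc5a7), 0.24 (Slc18a3) and -0.32 (Ache), brainstem against middle 0.27 (Chat), 1.24 (Slc5a7), 1.16 (Slc18a3) and 0.16 (Ache), forebrain against middle 1.63 and ventral against dorsal 1.33 (both Chat), none of them past the threshold, and Slc18a3 minus Ache turned to 0.56 in forebrain against brainstem. The sagittal contrast and the F test could not be fitted with it.

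At an adjusted p under 0.01, Chat in forebrain against middle (0.62) and at the midline (0.64) and Ache in brainstem against middle (0.39) were lost. With fractions of the same number paired, lost calls were Chat over the pairs (adjusted p = 0.0853), in forebrain against middle (0.76), ventrally (1.01) and at the midline (0.71), Slc5a7 in forebrain against brainstem (-0.98) and Ache in brainstem against middle (0.34). With the coronal pairs alone, Chat in forebrain against middle (0.62) was lost. With other boundaries, Slc5a7 (-0.39) in forebrain against brainstem and Ache (0.30) in brainstem against middle were lost, and Slc5a7 (1.17) and Slc18a3 (0.87) in forebrain against middle were gained. The other Chat probe, well above background in 0 of 9 S and 0 of 10 So fractions, measured 0.0443 at the midline. The cause was not tested. Leaving out each of 56 arrays, forebrain against middle ranged from 0.41 to 0.83 for Chat and 0.60 to 0.88 for Slc5a7, which passed without S2 or So3, and brainstem against middle from 0.32 to 0.47 for Ache. The 3328 features called in forebrain against middle became 7092 with the mouse block, 551 with slide fixed, 1871 at 0.01 and 750 with same-number pairs. The 4602 ventral calls became 9179, 1417, 2860 and 2103. The 7163 midline calls became 12170 with the mouse block and 3146 with same-number pairs. The 16608 and 13872 called in forebrain against brainstem and brainstem against middle became 3701 and 8006 with slide fixed, and the 22417 varying over the pairs became 14773 among probes detected on all arrays and 13772, 4603 and 2413 with 1 plane alone. The peak fractions of the members were the same in all 24 profiles of the authors' table, and in 3 of 6 with the other Chat probe. Without centring, 4 of the 5 genes most like Chat, 3 for Slc5a7, 4 for Slc18a3 and 1 for Ache remained. Of 384 recomputed differences between members, 344 kept their call and direction. Chat's dimness limits its values, since only 46 fractions rose well above background.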
